A study of Homo sapiens with 12 samples.

Results

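The MYC network is a set of transcription factors that compete for a common partner, and its 9 protein-coding genes MYC, MYCN, MYCL, MAX, MXD1, MXI1, MXD3, MXD4 and MNT are described here with PVT1, the long noncoding RNA gene that neighbors MYC on chromosome 8q24. The members were chosen by name, and every H2A.Z and acetylated H2A.Z (H2A.Zac) region that lay over a gene body of the GENCODE annotation (hg38) or within 10 kb of it was collected. These 10 loci, of 62700 annotated genes, held 162 of the 158028 listed regions. They comprised 40 of 63442 H2A.Z regions and 122 of 94586 H2A.Zac regions. Every member but MYCN had at least 1 region.

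MYC, MYCN and MYCL proteins bind DNA as dimers with MAX and recruit coactivators, among them TRRAP and the TIP60 complex, whereas the MXD proteins, MXI1 and MNT bind the same E-box sequence with MAX and recruit corepressors. TIP60 acetylates histones, including the variant H2A.Z, and its scaffold and motor subunit EP400 exchanges H2A for H2A.Z. H2A.Z typically flanks the TSS and occupies enhancers, and its acetylated form is associated with active genes. In blood cell leukemias MYC is known to be controlled by distant enhancers, and the long PVT1 gene lies in the same regulatory neighborhood.

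ChIP-seq had been carried out in K562, an established line of chronic myeloid leukemia, to ask how the histone variant is distributed when EP400 cannot take TRRAP into the complex. The endogenous EP400 of each line is fused to a degron through which dTAGV-1 removes the protein, and an exogenous copy of EP400, either WT or ΔTRRAP, was placed at the AAVS1 safe harbor locus. The ΔTRRAP protein lacks the region that recruits TRRAP. Both lines received 500 nM of the degrader for 24 h. They were made from the same tagged clone and therefore share the tagged allele, the degrader and the exogenous expression. Each line is 1 clone selected after complementation, so genotype and clone cannot be told apart. Each line was sampled in 2 biological replicates, from which input and ChIP with an antibody against H2A.Z or its acetylated form gave 12 libraries in all.

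The authors compared merged replicates of the lines with MACS2 bdgdiff, and each deposited region therefore belongs to a class. Regions higher in WT are called lost in ΔTRRAP, regions higher in ΔTRRAP are called gained, and the remainder are unchanged. The value of a region is the authors' log10 likelihood ratio, which is at least 3 in the lost and gained lists. It measures how well reads separate the lines, depends on depth and width, and is not a fold change. The lists hold no read counts and no values per replicate, so the depth is unknown here, no spread between replicates could be set against a difference, and no test between the lines could be made from them. Regions of different classes often abut, because bdgdiff divides a peak into stretches, and a count of regions is not a count of peaks. A bulk measurement also cannot tell a change in each cell from a change in the share of cells that carry the mark. The cell type label of the samples reads lymphoblast. H2A.Zac was listed within 1 kb of the TSS for 7 of 8 erythroid and myeloid leukemia line markers and for 3 of 6 lymphoid markers, beside 63.9% of all protein-coding genes. Of the former, 4 had gained H2A.Zac only and 1 had both directions, with the highest gained ratios at EPOR (12.2) and TAL1 (7.28), where 32.2% of all protein-coding genes had gained only and 4.42% had both. Of the latter, CD79A and CD2 carried lost regions with ratios of 42.9 and 19.3, where 12.2% of all protein-coding genes had lost only.

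Across the 10 loci, changed H2A.Zac went mainly upwards, and changed H2A.Z went both ways. For H2A.Zac 57 of 122 regions were changed (52.1% in the whole list), of which 44 were gained (26.3%) and 13 lost (25.9%), and 65 were unchanged. The gained share of the changed was 77.2%, with a Wilson 95% confidence interval of 64.8 to 86.2% that covers counting error only, beside 50.4% in the whole list. In length, 32.5 kb of H2A.Zac were gained, 13.6 kb were lost and 65.6 kb were unchanged. PVT1 supplied 28 of the 44 gained regions. At the other 9 loci, 16 regions were gained and 10 lost, a share of 61.5% (42.5 to 77.6%), and the gained and lost lengths were close, at 12.3 and 12.1 kb. Most of the excess of gained regions lay in PVT1, and the transcription factor genes alone had an interval that included the value of the whole list. For H2A.Z 12 of 40 regions were changed (34% in the whole list), with 6 gained (14.1%), 6 lost (19.8%) and 28 unchanged. Its gained share was 50% (25.4 to 74.6%) beside 41.6% in the whole list. At a likelihood ratio of at least 10 only 8 changed H2A.Zac regions remained, of which 5 were gained and 3 lost, where 40.7% of such regions in the whole list were gained.

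**Figure D1:**
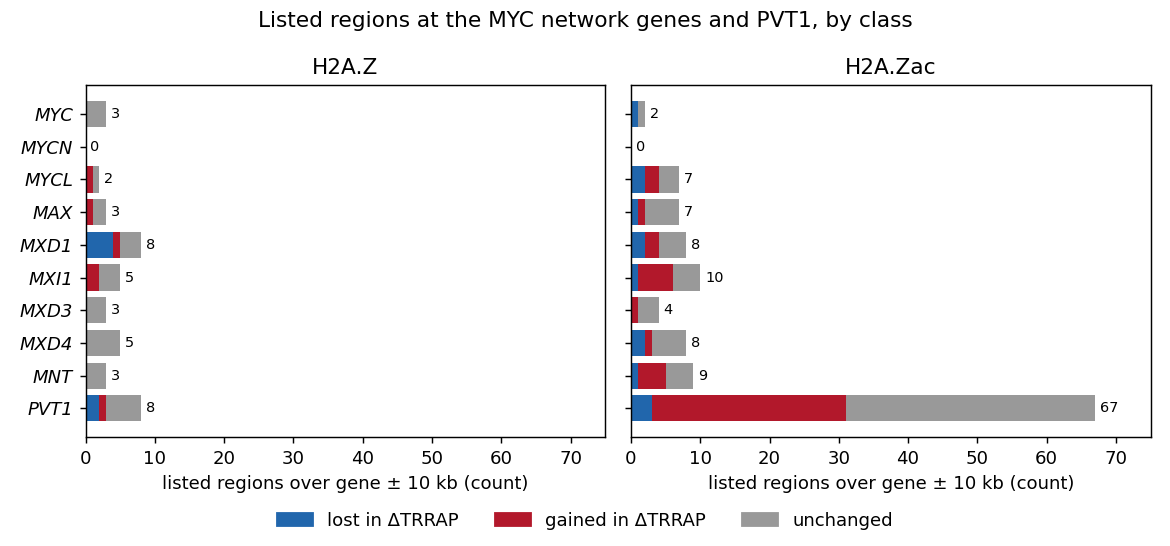
Number of listed H2A.Z regions (left) and H2A.Zac regions (right) over each gene and 10 kb to each side, on a horizontal axis of counts, with colored segments for regions lost in ΔTRRAP, gained in ΔTRRAP and unchanged, and the total printed at the end of each bar. PVT1 carries 67 of the 122 H2A.Zac regions, MYC carries 2 and MYCN carries 0.

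Counted by gene, a changed H2A.Zac region lay over 9 of 10 loci, where 76.4% of all protein-coding loci had one, and a changed H2A.Z region lay over 5 of 10 loci (MYCL, MAX, MXD1, MXI1 and PVT1), where 46.3% of protein-coding loci had one. The members were thus near the background in this respect. Lost H2A.Zac regions were present at 8 loci (background 49.8%) and gained ones at 8 loci (59.4%), and both directions met at 7 of the 10 (32.8%). The direction at the TSS, in the first intron and beyond the end of the gene often differed, as the maps of the 9 protein-coding genes show.

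**Figure D2:**
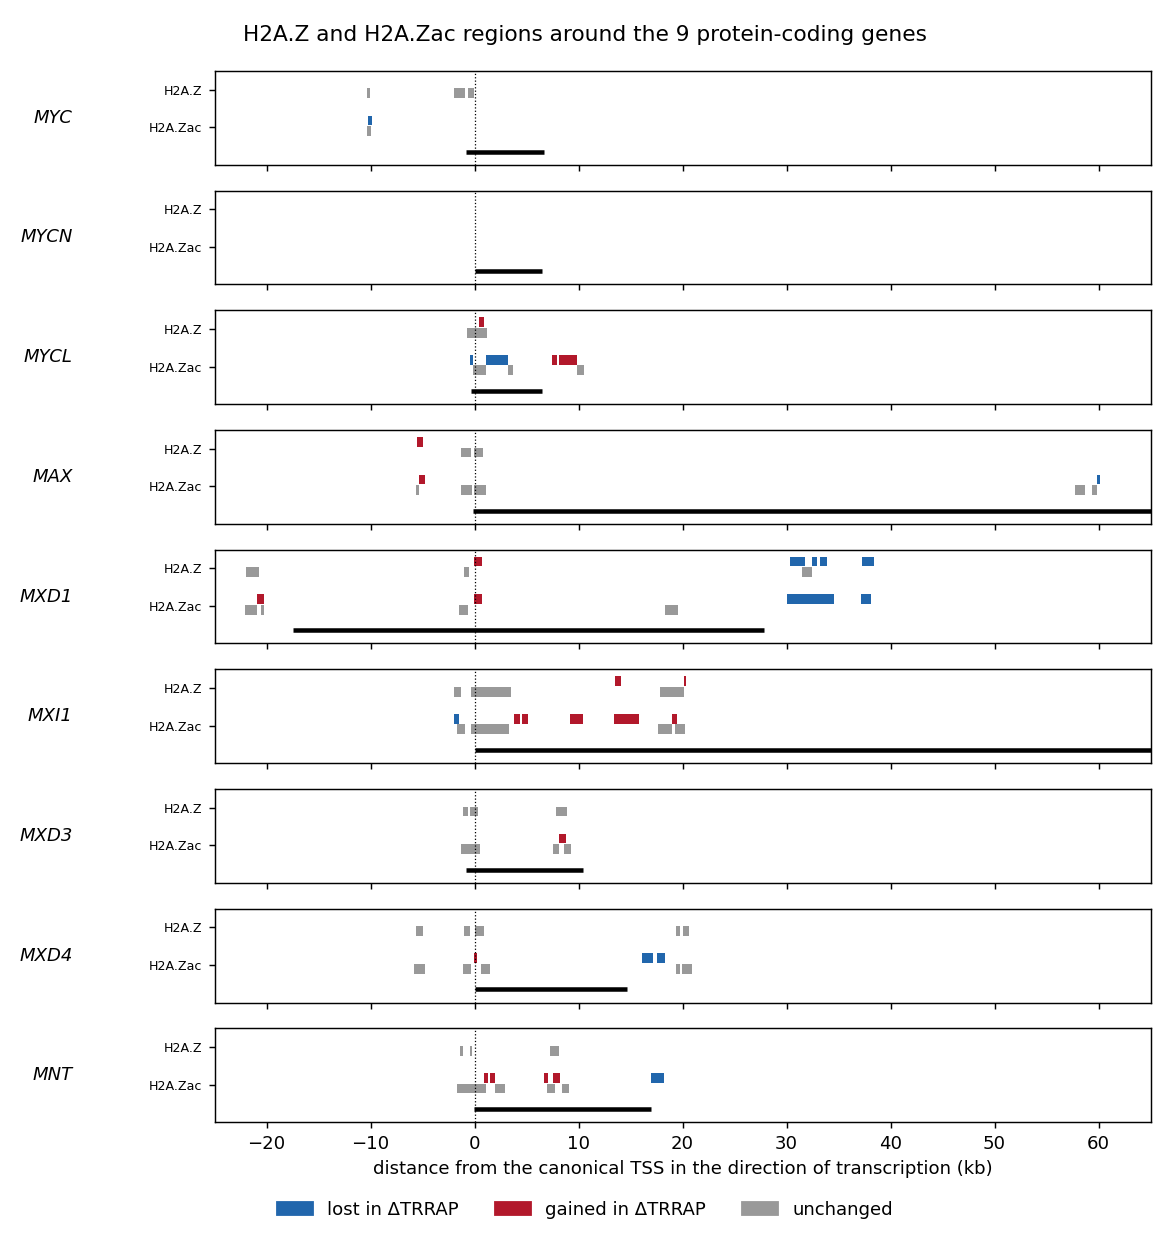
Regions around the 9 protein-coding genes, on an axis of distance from the canonical TSS in kb in the direction of transcription (dotted line at the TSS), with H2A.Z above H2A.Zac in each panel, changed regions drawn just above unchanged ones, and the annotated gene as a black bar that for MAX and MXI1 runs past the plotted 65 kb. MYCN has no region, MYC has only unchanged H2A.Z beside its TSS, MXD1 has gained regions of both marks on its TSS and lost regions of both marks past its end, and MXI1 has 5 gained H2A.Zac regions in intron 1.

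The window of 1 kb to each side of the canonical TSS held unchanged H2A.Z at most members. H2A.Z was listed there at 9 of 10 members (62.2% of protein-coding genes) and H2A.Zac at 8 (63.9%). H2A.Z was unchanged only at 7 (42.1%) and changed at 2 (20%), and H2A.Zac was changed at 4 (48.8%). Unchanged regions of both marks were all that was listed at MAX, MXI1, MXD3 and PVT1. Gained H2A.Zac was found in the windows of 3 of 10 members, MXD1, MXD4 and MNT. It was found in 36.6% of protein-coding TSS windows and in 15.1% of those of lncRNA genes. These 3 members belong to the repressor arm, of which MXI1 and MXD3 had unchanged H2A.Zac only, and the arm was not tested. Lost H2A.Zac was found in the window of MYCL (background 16.6%). Gained H2A.Z lay in the windows of MYCL and MXD1 (13.9%, and 5.35% for lncRNA genes), and no member had lost H2A.Z there (6.53%). When the TSSs of all annotated transcripts were used instead, PVT1 and MXI1 joined both groups of gained genes, which then held 5 members for H2A.Zac and 4 for H2A.Z, and PVT1 also had a lost H2A.Z region. PVT1 has 132 annotated TSSs and MXI1 has 37. The share of all genes with such regions at the TSSs of all transcripts was not computed, so these counts have no background.

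The 250 bases before the RefSeq start (GRCh38.p14) are shown for the 3 genes whose promoter bases fell inside a changed H2A.Zac region, since they show how far that region reached upstream of the start. Bases inside the region are in capitals. Of the bases shown, the gained region held 34 at MXD1 (chr2:69914859-69915108, plus strand) and 101 at MXD4 (chr4:2262110-2262359, minus strand), both adjoining the start. The lost region held 94 at MYCL (chr1:39901918-39902167, minus strand), at the far end from the start.
MXD1: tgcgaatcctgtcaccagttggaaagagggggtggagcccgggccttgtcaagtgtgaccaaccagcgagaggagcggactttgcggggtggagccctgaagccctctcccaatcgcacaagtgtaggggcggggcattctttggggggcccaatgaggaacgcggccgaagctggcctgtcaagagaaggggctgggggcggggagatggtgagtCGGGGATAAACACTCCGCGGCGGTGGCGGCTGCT
MXD4: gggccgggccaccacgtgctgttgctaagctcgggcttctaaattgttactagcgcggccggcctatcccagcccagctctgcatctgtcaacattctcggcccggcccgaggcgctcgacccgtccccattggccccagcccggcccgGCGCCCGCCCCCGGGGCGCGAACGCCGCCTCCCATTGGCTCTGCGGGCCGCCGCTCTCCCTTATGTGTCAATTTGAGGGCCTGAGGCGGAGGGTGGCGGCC
MYCL: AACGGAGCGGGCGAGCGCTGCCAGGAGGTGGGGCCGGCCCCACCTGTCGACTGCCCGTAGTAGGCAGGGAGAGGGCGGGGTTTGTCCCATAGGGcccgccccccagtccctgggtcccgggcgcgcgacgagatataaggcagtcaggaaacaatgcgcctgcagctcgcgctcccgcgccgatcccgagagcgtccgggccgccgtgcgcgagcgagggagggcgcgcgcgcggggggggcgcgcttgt

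MYC itself carried H2A.Z without listed H2A.Zac at its promoter. The gene (ENSG00000136997.22, chromosome 8, 127735434 to 127742951, plus strand) encodes the leading activator of the network. An unchanged H2A.Z region of 567 bp (127735578 to 127736144, likelihood ratio 0.897) ended 87 bp before the canonical TSS, and another of 1043 bp (127734265 to 127735307, 0.545) lay 924 bp before it and within 1 kb of the TSS of the lncRNA gene CASC11. Neither the TSS nor the gene body downstream of it had a region of either mark. H2A.Z without any listed H2A.Zac in the TSS window occurred at 549 of 20046 protein-coding genes (2.74%), and at 346 of them (1.73%) the H2A.Z was unchanged, as at MYC. The nearest H2A.Zac lay 9.90 kb upstream, where a lost region of 324 bp (127726009 to 127726332, likelihood ratio 5.01) overlapped an unchanged region of 332 bp (1.93) and an unchanged H2A.Z region of 277 bp (0.323).

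The absence of listed H2A.Zac at MYC does not give the level of acetylation there. The deposited regions are numbered, and the numbering has gaps. A gap is taken here as a region that was compared but not kept, an assumption that no source states. Between the nearest listed H2A.Zac regions of each class on both sides of MYC, 2 numbers are skipped among unchanged, 2 among gained and 0 among lost ones. In the whole lists, 75.2% of the numbers of unchanged H2A.Zac regions are present, 54.9% of gained and 50.6% of lost ones. For H2A.Z, counted in the same way, 10 numbers are skipped among lost, 4 among gained and 1 among unchanged regions. The spans between such regions can reach far beyond the locus. No lost H2A.Z region was listed between 2 Mb upstream of the PVT1 TSS and that TSS. The skipped numbers therefore cannot be placed at MYC. The shares present in the whole H2A.Z lists are 36.1%, 48.8% and 67.4%. The unchanged H2A.Z at MYC thus describes listed regions only. The 10-kb margin set the reach of the locus. Just outside it, from 16.3 kb after the end of MYC, a lost H2A.Zac region (127759255 to 127759998, likelihood ratio 6.45), an unchanged one (127759957 to 127761211, 0.958) and a gained one (127761068 to 127761408, 5.32) followed each other. On the other side the nearest H2A.Zac region beyond the margin was unchanged and lay 116 kb before the gene.

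The genes most like MYC, by the share of bases in the same class of the same mark among bases listed for either gene within 5 kb of the TSS, were KCNK13 (59.1%), TRERF1 (54.7%) and SAMD5 (52.0%) of 20045 compared. The network genes themselves were far down this order, with MAX at 13.3% and MXD3 at 13.05%, at positions 3346 and 3543. The bases listed at MYC in this window are those of its 2 unchanged H2A.Z regions.

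MYCN (ENSG00000134323.13, chromosome 2, 15940550 to 15947007), the paralog known from neuroblastoma, had 0 regions of either mark over its locus, as had 14.5% of protein-coding loci. In the surrounding 1 Mb to each side, all 23 changed H2A.Z regions were lost, whereas for H2A.Zac 12 of 32 were gained. With 2.5 Mb to each side, 28.1% of the changed H2A.Z regions were gained.

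MYCL (ENSG00000116990.12, chromosome 1, 39895428 to 39902256, minus strand), the paralog first known from small cell lung cancer, was the member at which the marks went apart at the TSS. An unchanged H2A.Z region of 2013 bp (39900673 to 39902685, likelihood ratio 0.806) spanned the TSS, and within it a gained H2A.Z region of 490 bp (39901025 to 39901514, 3.92) lay in exon 1. H2A.Zac was unchanged over the TSS for 1264 bp (0.682) and was lost on both sides of that stretch. A lost region of 287 bp (39902074 to 39902360, 4.72) began 157 bp upstream, where it covers the capitals of the MYCL sequence, and a lost region of 2154 bp (39898683 to 39900836, 8.06) filled part of intron 1. Past the end of the gene, H2A.Zac was gained over 1790 bp (39892027 to 39893816, 8.50) and over 474 bp (39894006 to 39894479, 5.00). Loss at the promoter and intron thus stood beside gain downstream. The lost promoter region and the gained H2A.Z region both fell short of a likelihood ratio of 5.

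MAX (ENSG00000125952.21, chromosome 14, 65006174 to 65102695, minus strand), the partner that the MYC, MXD and MNT proteins share, kept both marks unchanged at its TSS. An unchanged region of each mark spanned it (0.638 for H2A.Zac and 0.365 for H2A.Z), and another of each lay just upstream (0.629 and 0.298). The changes lay elsewhere. Upstream, 4.76 kb from the TSS, a gained H2A.Zac region of 547 bp (65107278 to 65107824, 6.55) overlapped a gained H2A.Z region of 590 bp (65107436 to 65108025, 8.12). The latter was the gained H2A.Z region with the highest ratio over the 10 loci. Downstream, 59.8 kb from the TSS, a lost H2A.Zac region of 370 bp (65042331 to 65042700, 5.05) lay within FNTB, a gene that shares this interval.

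Among the repressor partners, MXD1 had gained regions at its TSS and lost regions past its end, in both marks. At the TSS of MXD1 (ENSG00000059728.11, chromosome 2, 69897688 to 69942945, plus strand), whose product rises as blood cells differentiate, both marks were gained. H2A.Zac was gained over 772 bp (69915075 to 69915846, 11.4) and H2A.Z over 722 bp (69915095 to 69915816, 5.18), and all of the H2A.Z stretch lay within the acetylated one. Gain of both marks in the same TSS window was found at 2204 protein-coding genes, or 11%. Just upstream, unchanged regions of H2A.Zac (69913614 to 69914460, 0.938) and H2A.Z (69914119 to 69914559, 0.817) were listed, so the gained stretch was the downstream side of the promoter. From 30.0 kb after the TSS, past the end of the gene, a lost H2A.Zac region of 4532 bp (69945128 to 69949659) had a likelihood ratio of 19.3, the highest of any lost region over the 10 loci. Within it lay 3 lost H2A.Z regions, with ratios of 5.80, 11.2 and 9.998, and an unchanged H2A.Z region of 945 bp (69946570 to 69947514, 1.29). Then, 37.2 kb after the TSS, a lost H2A.Zac region of 964 bp (8.57) overlapped a lost H2A.Z region of 1219 bp (5.92). The 4 lost H2A.Z regions of MXD1 were 4 of the 6 lost over all loci. A gained H2A.Zac region 20.3 kb upstream (69894150 to 69894816, 6.27) belonged to the TSS of the neighbor SNRNP27.

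MXI1 (ENSG00000119950.21, chromosome 10, 110207605 to 110287365, plus strand), which encodes the MAX partner MXD2, kept a broad unchanged domain over its TSS, where H2A.Z spanned 3855 bp (0.469) and H2A.Zac 3655 bp (0.540). Gains began where that domain ended. Intron 1 held 5 gained H2A.Zac regions, which started from 3.80 to 19.0 kb after the TSS. Their likelihood ratios were 16.4, 7.98, 8.72, 9.97 and 4.72 in order of distance, and the closest of them (110211400 to 110211960) had the highest ratio of any gained region over the 10 loci. Gained H2A.Z was found in the same intron at 13.5 kb (110221154 to 110221641, 5.73), wholly within gained H2A.Zac, and at 20.1 kb (110227717 to 110227976, 3.74). That intron also holds a further RefSeq start of MXI1 (110225996), where both marks were unchanged. The farthest gained H2A.Zac region (110226601 to 110227101) and the gained H2A.Z region at 20.1 kb lie downstream of this start. A lost H2A.Zac region of 455 bp lay 1.53 kb upstream (110205616 to 110206070, 5.34). It was covered by unchanged H2A.Z.

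The remaining repressor partners changed in acetylation alone. MXD3 (ENSG00000213347.11, chromosome 5, 177301461 to 177312757, minus strand), linked to proliferating cells, had an unchanged TSS, and its only changed region was a gained H2A.Zac region of 641 bp (177303120 to 177303760, 5.78) at the TSSs of RAB24 and PRELID1. At MXD4 (ENSG00000123933.17, chromosome 4, 2247432 to 2262109, minus strand) a gained H2A.Zac region of 294 bp (2261917 to 2262210, 6.55) spanned the TSS between unchanged H2A.Zac regions, and H2A.Z was unchanged there (0.185). Past its end, 16.1 and 17.5 kb from the TSS, 2 lost H2A.Zac regions (2244997 to 2245985, 16.3, and 2243769 to 2244611, 13.2) had no H2A.Z region under them. MNT (ENSG00000070444.15, chromosome 17, 2384073 to 2401104, minus strand), a repressor found in most cell types, had an unchanged H2A.Zac region of 2823 bp over its TSS (0.866) and 4 gained H2A.Zac regions inside the gene. Those in intron 1 had ratios of 5.31 (2399759 to 2400178) and 10.3 (2399108 to 2399540), and those around exons 3 and 4 and in intron 4 had ratios of 8.51 and 6.53. A lost region of 1223 bp (2382846 to 2384068, 6.63) lay just past the end of the gene. Its 3 H2A.Z regions were unchanged. Of the 162 regions, 12 lay within 1 kb of the TSS of another protein-coding gene, and 2 of these were changed, at MXD1 and MXD3 as named.

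PVT1 (ENSG00000249859.14, chromosome 8, 127794526 to 128187101, plus strand, 393 kb) stood apart in the number of its gained regions. It had 28 gained, 3 lost and 36 unchanged H2A.Zac regions, a gained share of 90.3% (Wilson, 75.1 to 96.7%), and 20.2 kb gained against 1.49 kb lost. Gained shares were also high on few changed regions at MXI1 (83.3%, 5 of 6) and MNT (80%, 4 of 5). The TSS itself was unchanged in both marks, with an H2A.Zac region of 2278 bp (127793947 to 127796224, 0.575) and an H2A.Z region of 991 bp (127794089 to 127795079, 0.423). The first gained region (127796022 to 127796775, 5.13) began 1.48 kb after the TSS, touched exon 2 and overlapped the end of the unchanged one. The other 27 gained regions lay wholly in introns of the canonical transcript of 11 exons.

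The listed H2A.Zac regions were not spread evenly along PVT1. Between 50 and 280 kb after the TSS, from intron 2 to intron 4, lay 25 of the 28 gained regions. The same stretch held 34 of the 36 unchanged regions, including that at exon 3 (127890519 to 127892176), and 1 of the 3 lost regions. The densest stretch was from 100 to 150 kb, with 9 gained and 13 unchanged regions, and from 250 to 300 kb there were 6 gained and 8 unchanged. Regions with the highest ratios were in intron 3 (127896725 to 127899559, 2835 bp, 11.4) and intron 2 (127800816 to 127801626, 811 bp, 10.4). A trio of gained regions in intron 2 (127850715 to 127855680) had ratios of 9.14, 8.72 and 9.26. Lost H2A.Zac stood alone in intron 2 (127875650 to 127876091, 9.74) and in intron 6 (128133566 to 128134249, 9.24, and 128139930 to 128140290, 5.04). The distal part of the gene thus held 2 of 3 lost regions and only 1 gained region (128149549 to 128150090, 6.40).

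**Figure D3:**
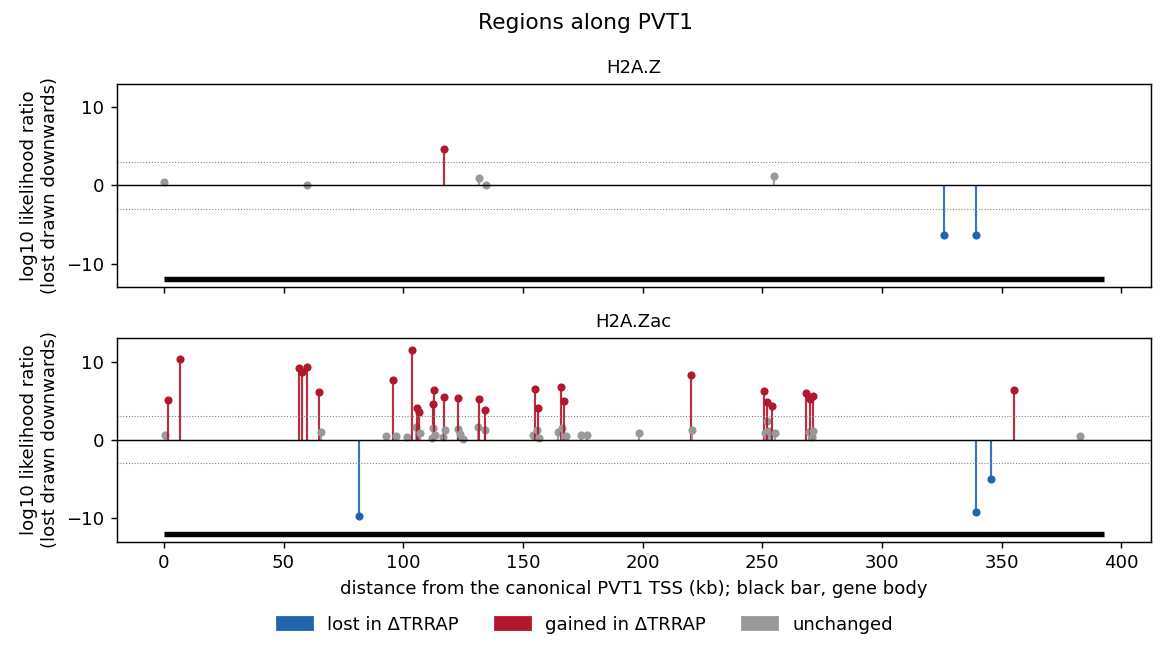
Likelihood ratio of every listed H2A.Z region (top) and H2A.Zac region (bottom) along PVT1, plotted at its middle against distance from the canonical TSS in kb, with lost regions drawn downwards, dotted lines at the cutoff of 3 and the gene body as a black bar. Gained H2A.Zac regions reach 11.4 and occur in groups between 50 and 280 kb, and both lost H2A.Z regions lie beyond 300 kb.

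Of the 28 gained regions, 22 overlapped an unchanged H2A.Zac region or lay within 100 bp of one, beside 66.6% of all gained H2A.Zac regions. When H2A.Zac regions of any class within 1 kb of each other were joined, a step chosen after seeing the data, 24 stretches resulted. Of these, 14 held gained and unchanged regions, 3 only gained, 3 only lost and 4 only unchanged ones, and no stretch held both directions. The gained regions were modest individually. Their ratios ran from 3.57 to 11.4, only 7 of the 28 exceeded the median of 6.87 of all gained H2A.Zac regions, and 2 reached a ratio of 10, while 16 were at least 500 bp wide.

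Few of the acetylated stretches of PVT1 had listed H2A.Z. Only 8 H2A.Z regions were listed, of which 5 were unchanged. The gained one (127911415 to 127911920, 4.69) coincided with gained H2A.Zac (5.51), and of the lost ones, both in intron 6, the one at 339 kb (128133623 to 128134248, 6.29) coincided with lost H2A.Zac and the other (128120282 to 128120921, 6.27) had no H2A.Zac. Of the 28 gained H2A.Zac regions, 24 (85.7%) had less than 25% of their length covered by listed H2A.Z, beside 43.1% of all gained H2A.Zac regions. The unchanged H2A.Zac regions of PVT1 lacked H2A.Z as well, in 33 of 36 cases (91.7%, beside 34.8% in the whole list).

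No other lncRNA locus among 18866 had as many gained H2A.Zac regions, the next having 20 and CCDC26, on the same chromosome arm, having 19. Of 20046 protein-coding loci only ARHGAP6 on chromosome X had at least as many, with 29 over 548 kb, followed by SMYD3 with 24. These names were chosen after their values were seen. Genes of 300 to 500 kb, which are like PVT1 in length, had a median of 1 gained region, both among 221 lncRNA genes and among 503 protein-coding genes. These are counts of regions and not of peaks. At PVT1 the gained regions fell into 17 joined stretches, and other loci were not ranked by stretches or by all their listed regions. Of the 67 listed H2A.Zac regions of PVT1, 46.3% were changed, beside 52.1% in the whole list. Of the loci with at least 20 changed H2A.Zac regions, 26 were lncRNA loci and 34 protein-coding loci, and PVT1 had the highest gained share of the former. A single protein-coding locus had a share at least as high.

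The gained share along PVT1 was higher than that of its surroundings, with intervals apart within 1 Mb and barely overlapping within 2.5 Mb. Within 1 Mb to each side of the PVT1 locus, 4 H2A.Zac regions were gained and 7 lost, a share of 36.4% (15.2 to 64.6%). This interval does not overlap that of 75.1 to 96.7% at PVT1. It rests on only 11 changed regions and includes the 50.4% of the whole list, so the surroundings had no clear direction. Regions of a locus are neighbors and not independent, so the intervals cover counting error only. The difference was not tested. With 2.5 Mb to each side, the surrounding share rose to 66.3% (56.0 to 75.3%), and this interval overlaps that at PVT1 only at its edge. Among the stretches added were that from 1.5 to 2 Mb downstream of the PVT1 TSS, where 21 were gained and 7 lost, that from 2 to 2.5 Mb downstream, with 7 gained and 2 lost, and that from 2 to 2.5 Mb upstream, where 17 were gained and 8 lost. The first of these includes the TSS of CCDC26, with gained H2A.Zac of 3109 bp (129572877 to 129575985, 11.1). Because MYC neighbors PVT1, the 1 Mb around MYC contained the PVT1 regions, and most of its 31 gained H2A.Zac regions, though not most of its 9 lost ones, are those of PVT1.

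Around the other members the surroundings took various directions. H2A.Zac within 1 Mb was mostly gained at MAX (67.9%, 49.3 to 82.1%) and mostly lost at MXD3 (29.7%, 19.9 to 41.8%). H2A.Z was mostly lost around MYCL, where 5 of 36 changed regions were gained, and around MXD4 (9 of 39), while around MXD1 19 of 31 were gained. The local gained share of H2A.Z was below that of the whole list around 8 of 10 members, and that of H2A.Zac around 5 of 10. With 2.5 Mb to each side the count for H2A.Z was 5 of 10, and the 8 include PVT1, with 1 changed H2A.Z region around it, and MYC, with 4. Few changed regions lay within each locus other than PVT1, and their intervals all overlapped those of the surroundings.

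**Figure D4:**
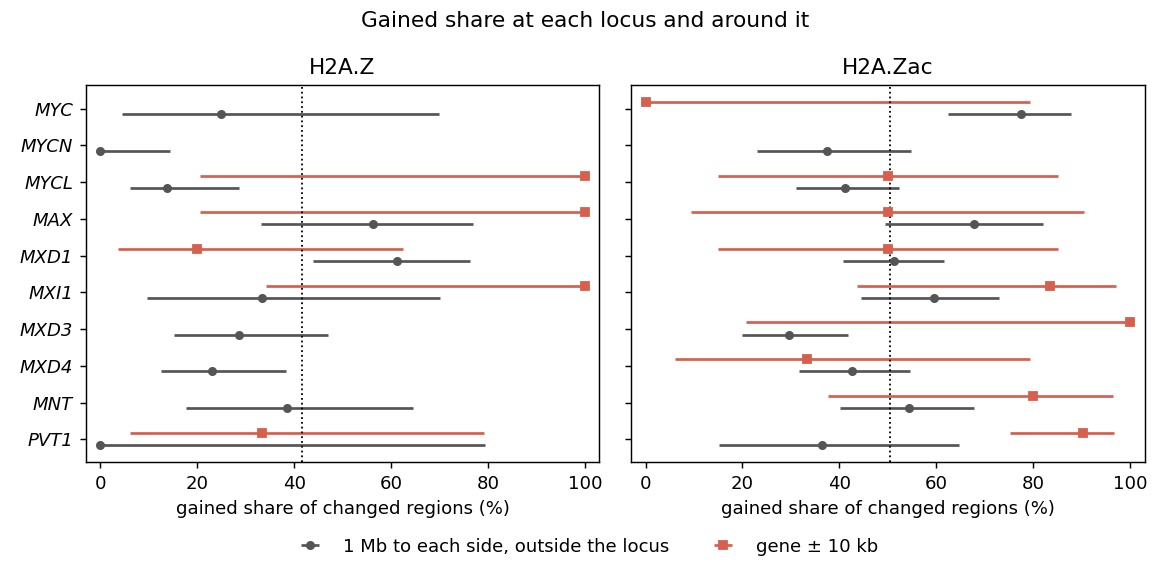
Gained share of changed regions in percent, for H2A.Z (left) and H2A.Zac (right), within each gene and 10 kb to each side (squares) and in the 1 Mb to each side outside it (circles), with Wilson 95% intervals that cover counting error only and a dotted line at the share of the whole list. Loci without a changed region have no square. For H2A.Zac at PVT1 the locus stands at 90.3% and its surroundings at 36.4%.

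Total and acetylated H2A.Z could be compared where their regions coincided. Of the 13 lost H2A.Zac regions of the 10 loci, 3 had at least 25% of their length on lost H2A.Z, 3 on unchanged H2A.Z and 7 (53.8%) on none, beside 45.2% on none in the whole list. Of the 44 gained ones, 3 lay on gained H2A.Z, 8 on unchanged H2A.Z, 0 on lost H2A.Z and 33 (75%) on none, beside 43.1% in the whole list. Without PVT1 the gained regions on none were 9 of 16 (56.2%). Read from the other side, 5 of 6 lost H2A.Z regions lay on lost H2A.Zac and 4 of 6 gained ones on gained H2A.Zac, beside 65.9% and 65.8% in the whole lists. Opposite directions of the marks thus never coincided at these genes, which is rare in the whole lists too, where 8 of 24844 gained H2A.Zac regions lay on lost H2A.Z.

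The sequence CACGTG, the E-box that MAX dimers are known to bind, was counted in the regions on both strands, which are equivalent because the letters are palindromic. It was present in 4 of 13 lost H2A.Zac regions (30.8%), in 3 of 44 gained ones (6.82%) and in 12 of 65 unchanged ones (18.5%). In the whole lists, 18.4% of lost, 8.77% of gained and 14.6% of unchanged regions held it, so the order of the classes was that of the whole lists. Median widths at the loci differed, at 684 bp for lost, 554 bp for gained and 793 bp for unchanged regions. Per kb they held 0.294, 0.154 and 0.274 matches, so lost and unchanged regions were close. The values in the whole lists were 0.252, 0.114 and 0.189. The median GC content of lost and gained regions at the loci was 49.7% for both. A match describes the letters and is not a binding site. RefSeq promoters from 250 bases before to 50 bases after the start were matched for 8 members, 11 promoters in all, and 2 of them held CACGTG, beside 2548 of 35116 promoters (7.26%). They are shown here from their 250 bases before the start, with the E-box in capitals, because acetylation was gained in the TSS window of both genes. At MXD4 (chr4:2262110-2262359, minus strand) the E-box began 238 bases before the start, outside the gained region. At MNT (chr17:2401061-2401310, minus strand) it began 193 bases before the start, in unchanged H2A.Zac.
MXD4: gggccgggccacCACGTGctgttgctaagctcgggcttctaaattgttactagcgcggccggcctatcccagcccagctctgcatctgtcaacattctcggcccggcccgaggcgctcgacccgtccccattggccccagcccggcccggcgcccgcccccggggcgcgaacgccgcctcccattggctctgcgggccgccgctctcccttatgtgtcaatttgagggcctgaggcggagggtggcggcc
MNT: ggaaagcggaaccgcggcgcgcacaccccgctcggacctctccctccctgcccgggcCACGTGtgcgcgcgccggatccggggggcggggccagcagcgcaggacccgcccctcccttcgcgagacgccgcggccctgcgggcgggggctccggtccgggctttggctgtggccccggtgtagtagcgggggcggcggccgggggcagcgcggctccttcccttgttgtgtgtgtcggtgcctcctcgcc

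Genes that act with MYC were followed at their TSSs for comparison. Among 11 cofactors of MYC, 7 had gained H2A.Zac without a lost region, 1 had lost, 1 had both and 2 were unchanged, where 32.2% of all protein-coding genes had gained only, 12.2% lost only, 4.42% both, 15.1% unchanged only and 36.1% no region. The highest ratios were at EP400 (11.2) and TRRAP (8.49), which encodes the scaffold shared by TIP60 and SAGA. Lost regions were at RUVBL1 (6.68), an ATPase of TIP60 that had a gained region as well, and at KAT2A (4.71), the acetyltransferase of SAGA. KAT5, the acetyltransferase of TIP60, was unchanged. Of 11 genes that control the stability of MYC, 6 had gained H2A.Zac, 1 lost, 3 unchanged only and 1 none. The kinase gene PIM1 (11.5), the deubiquitinase gene USP28 (9.70) and CIP2A (9.24), which encodes an inhibitor of a phosphatase, led the gained group, and the ubiquitin ligase gene SKP2 (7.27) was the lost one.

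Of 28 classic targets of MYC, 17 had gained H2A.Zac, 2 lost, 1 both, 5 unchanged only and 3 none. The leading gained genes were LDHA (17.4), which encodes the enzyme of lactate formation, the cyclin gene CCND2 (13.04) and the nucleolar protein gene NPM1 (12.3). SRM (9.18), which encodes spermidine synthase, NME1 (6.91, also with a gained region) and SHMT2 (3.58), an enzyme of one-carbon metabolism, had lost regions. In H2A.Z, 9 of the 28 were gained only and 1 was lost, beside 13.5% and 6.19% of all protein-coding genes. At a likelihood ratio of at least 5, gained H2A.Z was found at 4 of them. The gained shares of cofactors, stability genes and targets stood above that of all genes, and so did their coverage, since no H2A.Zac region was listed for 0 of 11, 1 of 11 and 3 of 28 of them beside 36.1% of all genes. Of the MLX and MGA arm, which overlaps the MAX network, 0 of 4 genes had gained and 1 had lost H2A.Zac, which was MGA (8.995), and its TSS window also held gained H2A.Z (5.02). Of 12 neighbors on 8q24, 10 were matched. CCDC26 had gained H2A.Zac, while ASAP1 (7.91) and LRATD2 and PCAT1, which share a region (6.96), had lost it, and 5 had no region. In H2A.Z, 3 of the 10 were gained only, among them LRATD2 and PCAT1 through a shared region (4.32), and 0 were lost.

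**Figure D5:**
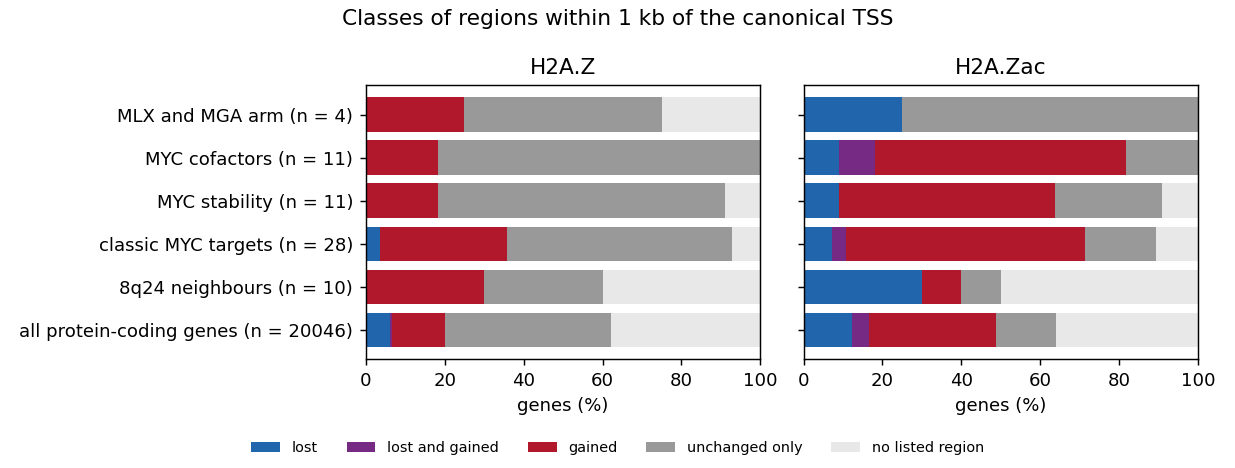
Percentage of genes in each list with lost, gained, both, unchanged only or no listed H2A.Z (left) or H2A.Zac (right) region within 1 kb of the canonical TSS, with the number of genes in parentheses and all 20046 protein-coding genes in the lowest bar. Gained H2A.Zac alone was found for 63.6% of cofactors, 54.5% of stability genes and 60.7% of targets, beside 32.2% of all protein-coding genes.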

How the data were processed

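ChIP-seq of H2A.Z and H2A.Zac with matched inputs was available for 12 libraries, grouped as WT and ΔTRRAP by their labels. Per the labels, Bowtie2 2.4.5, deepTools 3.5.1, MACS2 2.2.7.1 and bedtools 2.30.0 were used. The authors aligned reads to hg38, merged replicates, compared lines with bdgdiff using the effective depths given by MACS2, and kept regions with at least 25% of their length in peaks at an IDR of at most 0.05. The score deposited for each region is the authors' log10 likelihood ratio. The 6 lists were used as deposited. The shortest region was 250 bp. Depth is unknown here.

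Loci were GENCODE release 44 genes (the study used release 32) with 10 kb to each side. TSS windows reached 1 kb to each side of the canonical TSS. Marks were paired where at least 25% of a region was covered. Intervals are Wilson 95% intervals. No test could be made from the lists, in which replicates were merged. Members and gene lists were chosen with earlier results of these data known. All 10 members are named, and from each list the 3 genes per direction with the highest H2A.Zac likelihood ratio in the TSS window, of which 1 is not reported here. Alternatives were other likelihood ratio cutoffs, widths, margins, windows, mergers and TSS sets. Overlap counting was tested on simulated data. Python 3.11.15, numpy 2.4.6, pandas 2.3.3, scipy 1.17.1 and matplotlib 3.10.9 were used. Expression data, signal tracks and inputs were not analysed here.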

Additional observations from a re-analysis of the deposited data

How the results depend on the processing

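Since each list comes from merged replicates, no replicate could be left out. No paired analysis was possible because the results come from no test and the lists carry no replicate numbers. Of 120 alternative values that answer a comparison, 94 stayed within their limits (1.5 times for a count, the Wilson interval for a share).

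At a likelihood ratio of at least 10, the 10 loci had 73 listed H2A.Zac regions with a gained share of 62.5%, changed H2A.Zac was left at 5 loci, the gained share of H2A.Z was 0% at the 10 loci and 0% at the MXD family, changed H2A.Z was left at 1 locus, and PVT1 had 2 gained H2A.Zac regions, a share of 100%. In TSS windows at that cutoff, 1 member had gained H2A.Zac, 0 had lost H2A.Zac and 0 had gained H2A.Z. At a cutoff of 5 these windows held gained H2A.Z at 1 member and lost H2A.Zac at 0, and gained H2A.Z at 8 genes, rather than 17, of the 5 pathway lists together. With regions of at least 500 bp only, changed H2A.Z was left at 3 loci and PVT1 had 16 gained regions. Without PVT1, 55 H2A.Zac regions with a gained share of 61.5% were left. Joining regions of any class within 1 kb, chosen after seeing the data, gave 17 stretches with gain at PVT1. With the TSSs of all transcripts, gained H2A.Zac was found at 5 members, gained H2A.Z at 4 and lost H2A.Z at 1. With 2 kb to each side of the TSS, lost H2A.Zac was found at 2 members and lost H2A.Z at 3 genes of the pathway lists, and with 2 kb to each side of the gene, the MXD family had an H2A.Z gained share of 100%. With 2.5 Mb of surroundings, H2A.Z shares were below the whole list around 5 members. Stricter cutoffs and widths leave fewer regions by construction, and for the other shifts the cause was not tested. For the TSS windows of members and lists, shares of all genes were not computed under these alternatives. Unknown depth limits what can be said of unlisted stretches, above all at MYC and MYCN.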
